A study of Rattus norvegicus with 32 samples.

Results

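The radial nerve of old and adult rats was compared across the transcripts of the array. The nerve was represented by 16 of the 32 arrays of the study, 8 from male Wistar rats aged 24 months (old) and 8 from male Wistar rats aged 8 months (adult), chosen by the nerve and age in the sample titles, and all 31042 probe sets other than controls were kept. Each rat gave 1 piece of radial nerve, taken from the arm, and 1 piece of sciatic nerve, taken at mid-thigh. Sciatic changes are given only where the 2 nerves are compared. The 16 sciatic arrays were fitted together with the radial ones, so they enter each standard error and adjusted p. They also enter the choice of the probe set read for each gene. The labels name no transgene and no drug in either group. Each radial array is 1 animal. The source names of 3 adult animals, replicates 4, 5 and 6, contradict the titles of both of their arrays, and the titles were used. By title, all 16 radial arrays were below all sciatic arrays for the hindlimb-level gene Hoxc9, at 4.69 to 5.72 against 7.77 to 8.78 log2. Hoxc9 thus goes with the titles. Where the source names are used below, 3 adult arrays with Hoxc9 in the sciatic range are counted as radial.

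The radial nerve carries motor and sensory axons to the forelimb, whose muscles keep their mass in old rats better than those of the hindlimb, which the sciatic nerve serves. Within such a nerve the axons are the only part of the neuron, because the cell bodies lie in the spinal cord and the ganglia. Most of the RNA therefore comes from Schwann cells, which wrap the axons in a lipid-rich myelin sheath, and from fibroblasts, perineurial cells, vessels, resident macrophages and mast cells. A Schwann cell that loses its axon lowers myelin and sterol genes and takes up a repair state, with Ngfr, Gfap and Jun among its genes, while macrophages clear the debris. The defining markers were bright at both ages: the myelin genes Mbp and Pmp22 lay between 13.86 and 14.47 log2, and the fibroblast gene Dcn between 13.90 and 14.19 log2. The skeletal muscle genes also appeared. The mean of 13 muscle genes ran from 6.63 to 12.94 (median 11.60) log2 in adult arrays and from 6.48 to 12.96 (median 9.60) log2 in old arrays, and it was above 9 in 5 adult and 4 old arrays. Radial arrays correlated between 0.975 and 0.996 with each other. In a whole piece of nerve, fewer cells of a type and less RNA per cell cannot be told apart.

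Old nerves carried more transcript of interferon-induced genes and of genes of dividing cells, and the start regions of several of these genes are shown because a short motif recurs in each group. The interferon-stimulated response element, bound by the STAT and IRF factors that interferon activates, was searched as GAAA, any pair of bases, then GAAA, on both strands of the 250 bases before the start of each gene. It was found in 14 of 21 interferon effector genes with a promoter entry (66.7%), 6 of 10 genes of interferon-gamma GTPases and the immunoproteasome (60%), 3 of 15 genes of interferon induction and signalling (20%) and 902 of all 27457 promoters of that length (3.29%). Capitals mark the matches that lie whole within each window. The 4 windows belong to the rising effectors with a match and the smallest adjusted p, in RefSeq sequence of rat build GRCr8, written in the direction of the gene.
Lgals3bp, chr10:104127859-104127928, minus strand: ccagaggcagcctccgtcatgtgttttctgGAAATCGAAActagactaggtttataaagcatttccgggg
Ifi44l, chr2:243328634-243328703, plus strand: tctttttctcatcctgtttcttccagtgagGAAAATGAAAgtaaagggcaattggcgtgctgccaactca
Oas1a, chr12:41330401-41330465, plus strand: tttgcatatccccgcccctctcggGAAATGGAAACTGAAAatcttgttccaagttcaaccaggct
Ifit3, chr1:241527252-241527321, plus strand: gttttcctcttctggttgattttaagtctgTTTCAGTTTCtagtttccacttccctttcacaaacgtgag
Lgals3bp encodes a secreted galectin-binding protein, Oas1a an enzyme that senses viral double-stranded RNA, and Ifit3 a partner of RNA-binding antiviral proteins. In Ifit3 the match lies on the opposite strand, so its capitals read as the reverse complement, and in Oas1a a pair of matches overlaps.

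The cell cycle homology region, written here as TTTGAA and known as a site of the complex that keeps mitotic genes silent in resting cells, was found in 11 of 21 mitosis genes with a promoter entry (52.4%), in 1 of 21 genes of DNA replication (4.76%) and in 4402 of 27457 promoters (16%). The CCAAT box was present in 17 of 21 mitosis genes (81%) and 14 of 21 replication genes (66.7%), but also in 11 of 14 cholesterol synthesis genes (78.6%), a group that fell, against 9416 of 27457 (34.3%). The 4 rising mitosis genes with the smallest adjusted p and a match are shown in the same build, with TTTGAA or its reverse complement in capitals.
Ccnb2, chr8:79981666-79981731, minus strand: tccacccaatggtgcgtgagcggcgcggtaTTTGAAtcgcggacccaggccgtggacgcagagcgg
Top2a, chr10:84473094-84473145, minus strand: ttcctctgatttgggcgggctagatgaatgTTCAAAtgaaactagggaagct
Ect2, chr2:111966746-111966811, minus strand: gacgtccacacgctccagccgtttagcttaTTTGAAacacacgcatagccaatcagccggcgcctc
Cdk1, chr20:19265247-19265292, plus strand: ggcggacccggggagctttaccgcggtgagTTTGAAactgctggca
Cdk1 and cyclin B2 (Ccnb2) form the kinase that starts mitosis, Top2a untangles chromosomes, and Ect2 directs the contractile ring. In Top2a the match is on the opposite strand. A match describes the letters of the window only. The sterol response element, written as ATCAC, any base, CCAC, was found in 0 of 14 cholesterol synthesis genes with an entry and in 59 of 27457 promoters (0.215%). So few promoters hold this exact string that 0 of 14 cannot tell these genes from the rest, and variants of it were not searched.

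Across the whole array, 280 probe sets differed with age at adjusted p under 0.05 and more than 2-fold, 186 higher in old nerves (0.599% of those tested) and 94 lower (0.303%). At adjusted p alone 4778 passed, and 894 had 8 old values that did not overlap the 8 adult values (2.88%). Of 13437 genes read through their brightest probe set, 1286 were higher (9.57%) and 1052 lower (7.83%) at adjusted p under 0.05, with a median change of 0.00 log2 over all genes. These percentages are the background for the counts of gene groups below. Groups and their members were chosen with earlier results of these data known. Groups in which few members passed lie near or below these shares, and their members are named as single genes. Members named below were mostly picked by smallest adjusted p, which favours values that do not overlap. Ages called apart in them describe those genes only. With the 2-fold limit, 105 genes were higher and 42 lower, and 88 of these 147 did not overlap. Changes are given as old minus adult on the log2 scale with their standard error, 8 arrays per age, and adjusted p is limma's with Benjamini-Hochberg adjustment over all probe sets.

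The genes described first are the 15 largest increases and the 15 largest decreases among genes that passed both thresholds, had an established symbol and did not overlap between the ages, so their lack of overlap was set by the choice. The largest increase was that of Fam111a, which encodes a nuclear protease that works at DNA replication forks. It read 5.68 to 7.09 (median 6.47) log2 in adult nerves and 11.19 to 12.49 (median 12.05) log2 in old nerves, a change of 5.53 ± 0.19 or 46.2-fold (adjusted p = 4.27e-20). Siglec5, an inhibitory receptor of myeloid cells for sialic acid, read 5.73 to 6.93 (median 6.56) log2 in adult and 8.21 to 10.80 (median 9.40) log2 in old rats, 7.79-fold higher (adjusted p = 6.62e-09). The epithelial adhesion gene Epcam rose from 5.05 to 6.08 (median 5.58) log2 to 6.32 to 9.70 (median 8.37) log2 (change 2.65 ± 0.33, adjusted p = 1.28e-06), and Scel, which encodes the cornified-envelope precursor sciellin, from 5.61 to 7.67 (median 6.74) log2 to 8.57 to 9.96 (median 9.18) log2 (2.45 ± 0.33). For Epcam the old rats were widely spread, over more than 3 log2 units, whereas the adult rats lay within about 1 unit. Other epithelial genes did not all move that way: of 18 measured 4 rose and 3 fell, with Krt7 at 1.04 ± 0.23 and Pkp1 at 0.53 ± 0.15, and Krt5 at -0.69 ± 0.14, Cdh1 at -0.31 ± 0.09 and the secretory-cell disulfide isomerase Agr2 at -1.52 ± 0.21. Epithelial genes that fell numbered 5 instead of 3 without old replicate 1 or adult replicate 6.

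**Figure D1:**
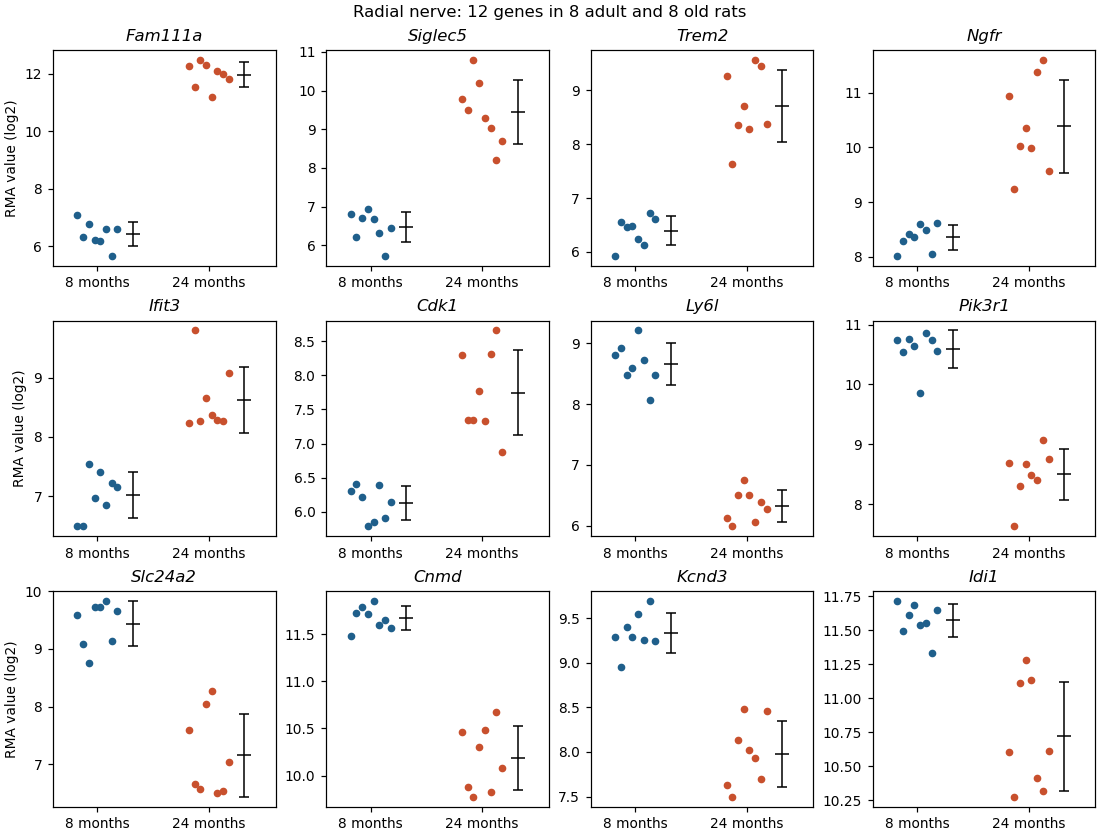
Radial nerve values (RMA, log2; y axes differ between panels and do not start at 0) of 12 genes in the 8 adult and 8 old rats, each dot 1 array in replicate order from left to right, with the mean and SD beside them. The 2 ages do not overlap in any of the 12 panels, which show genes picked from those without overlap.

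The next group of increases joined the lipid-sensing macrophage receptor Trem2 (2.32 ± 0.21), the corticotropin-releasing family peptide Ucn2 (2.28 ± 0.27), the protease inhibitor A2m (2.25 ± 0.43), the ubiquitin-like modifier Ubd (2.17 ± 0.34), the nucleotide-reducing enzyme subunit Rrm2 (2.08 ± 0.22), the lipoprotein component Apoc1 (2.04 ± 0.30) and the neurotrophin receptor Ngfr (2.03 ± 0.23). Tmem196 rose by 1.94 ± 0.31, Slfn4, known in mouse as interferon-induced in myeloid cells, by 1.81 ± 0.25, the RNA helicase Ddx60 by 1.69 ± 0.21, and the GTP-binding gene Drg1 by 1.66 ± 0.26. In Slfn4 a second, dim probe set read -0.03 and did not pass.

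Among decreases without overlap, Ly6l was first. It read 8.07 to 9.22 (median 8.66) log2 in adult and 5.99 to 6.75 (median 6.33) log2 in old nerves, a change of -2.34 ± 0.15 (adjusted p = 8.72e-13). Slc24a2, an exchanger of sodium for calcium and potassium, fell from 8.75 to 9.82 (median 9.62) log2 to 6.51 to 8.27 (median 6.85) log2 (-2.29 ± 0.31, adjusted p = 4.17e-06). The spliceosome-associated gene Cwc25 fell from 8.18 to 9.17 (median 8.82) log2 to 6.32 to 7.49 (median 6.61) log2 (-2.10 ± 0.17). In Slc24a2 the old rats fell into a lower and a higher part, with replicates 1, 4 and 5 at 7.59, 8.04 and 8.27 log2 and the other 5 at or below 7.05 log2. Pik3r1, the regulatory subunit of phosphoinositide 3-kinase downstream of the insulin receptor, fell from 9.85 to 10.85 (median 10.69) log2 to 7.63 to 9.07 (median 8.58) log2, 4.24-fold lower (adjusted p = 2.9e-10).

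The transcription factor Ascl3 fell by 1.97 ± 0.15 log2, the anti-angiogenic cartilage glycoprotein Cnmd by 1.49 ± 0.15, the dipeptidase Dpep1 by 1.39 ± 0.24, the A-type potassium channel Kcnd3 by 1.36 ± 0.16, and Tacr3, the receptor for the peptide neurokinin B, by 1.32 ± 0.17. The rest of the 15 were Fam216b (-1.29 ± 0.20), Slc35g2 (-1.23 ± 0.13), the adaptor subunit Ap5m1 (-1.23 ± 0.09), Ermn, which shapes the cytoskeleton of myelinating oligodendrocytes (-1.15 ± 0.17), and the phosphatase subunit Ppp2r2b (-1.12 ± 0.09). A dimmer probe set of Kcnd3 read -0.14 and did not pass. With the nerve taken from the source names instead of the titles, Agr2 (-0.85, adjusted p = 0.114) and Tacr3 (-0.74, adjusted p = 0.114) did not pass.

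Genes of the repair Schwann cell were mostly higher in old radial nerves. Of 18 measured, 10 rose and 1 fell, with a median of 0.53 log2. The study picked Ngfr, Fgf5 and Bdnf on these samples, so their direction is not independent evidence. Ngfr read 8.02 to 8.63 (median 8.39) log2 in adults and 9.23 to 11.61 (median 10.20) log2 in old rats, and Ucn2 5.30 to 5.79 (median 5.55) log2 and 6.38 to 9.19 (median 7.61) log2. The old rats spread over more than 2 units in each. The intermediate filament Gfap rose by 1.25 ± 0.16, the factor Pou3f1, which promotes myelination in development, by 1.06 ± 0.17, the cytokine Clcf1 by 0.79 ± 0.15, the progenitor factor Sox2 by 0.59 ± 0.13, and the injury-induced factors Atf3 and Jun by 0.67 ± 0.15 and 0.39 ± 0.09. The adhesion gene Cdh2 fell (-0.60 ± 0.11). Fgf5 (0.57 ± 0.26, adjusted p = 0.133) and Bdnf (0.11 ± 0.07, adjusted p = 0.261) overlapped between the ages and did not pass, and both lay near the lower end of the scale. Of the 3 further Sox2 probe sets none passed and 2 read below 0.

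**Figure D2:**
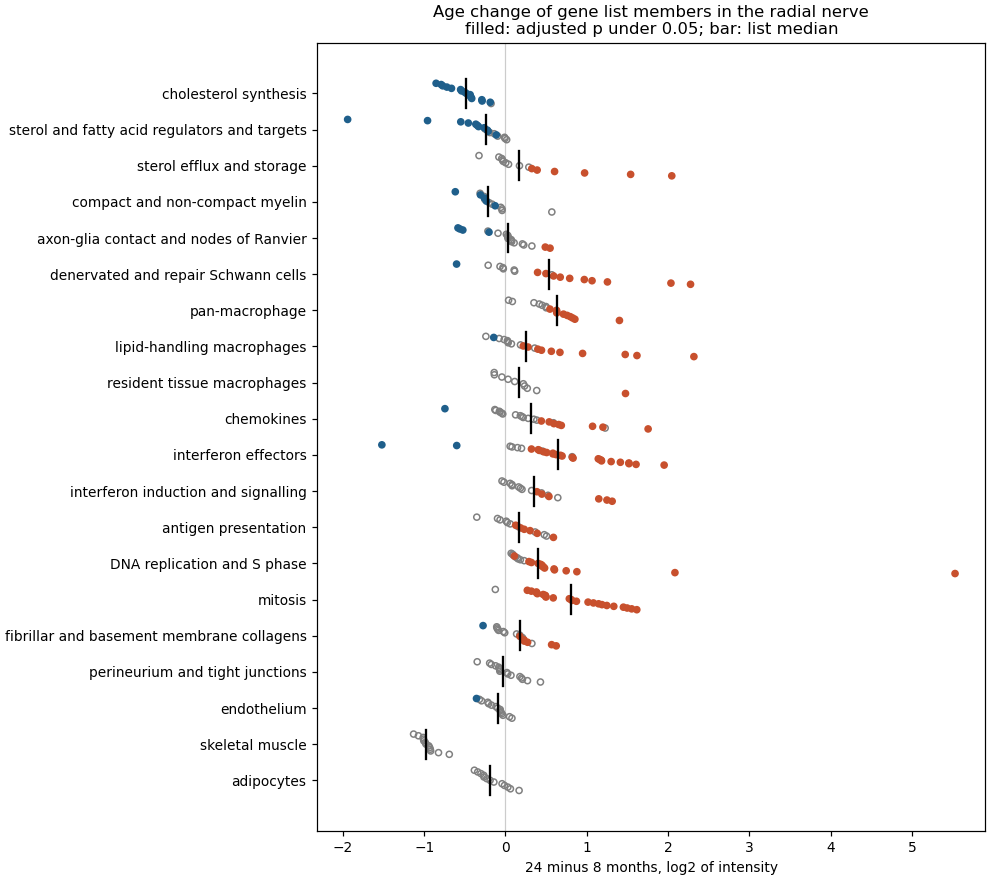
Age change in the radial nerve (x axis: old minus adult, log2 of intensity) of the measured members of 20 gene groups, each dot 1 gene, filled where adjusted p was under 0.05 (red higher, blue lower) and open otherwise, with a bar at the group median. The mitosis and interferon groups lie mostly right of 0 and cholesterol synthesis left of it, and all muscle genes are open.

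Myelin genes moved less. Of 14 measured, 5 fell and 0 rose by limma (at an unadjusted p under 0.05, 8 and 0; median -0.22 log2). Drp2, a link of the sheath to the basal lamina, read 10.98 to 12.08 (median 11.61) log2 and 10.37 to 11.72 (median 10.93) log2 (change -0.62 ± 0.16, adjusted p = 0.00892), the raft protein Mal 13.37 to 13.59 (median 13.51) log2 and 12.79 to 13.45 (median 13.25) log2 (-0.26 ± 0.07), and myelin basic protein Mbp 14.11 to 14.21 (median 14.19) log2 and 13.86 to 14.14 (median 14.07) log2 (-0.13 ± 0.04). The ages overlapped in all 3, and with radial arrays alone Mbp did not pass in its brightest probe set. A second, dimmer Mbp probe set fell by more (-0.47, adjusted p = 0.00166 by limma). Myrf (-0.31 ± 0.09), a factor of central myelin genes, and the myelin membrane gene Pllp (-0.24 ± 0.08) also fell. Prx (-0.16 ± 0.07) did not pass, nor did the brightest probe set of Pmp22 (-0.04 ± 0.03), of which a second passed at -0.12 (adjusted p = 0.0244). Among 20 genes of axon-glia contact and the node of Ranvier, 4 fell and 2 rose. Nfasc, which anchors the node and the paranode, fell from 11.03 to 11.38 (median 11.11) log2 to 10.14 to 10.98 (median 10.54) log2 (-0.56 ± 0.11, adjusted p = 0.000357), with no overlap. The contactins Cntn1 (-0.58 ± 0.15) and Cntn2 (-0.52 ± 0.12) and the adhesion gene Cadm3 (-0.20 ± 0.05) fell, while Cadm1 (0.49 ± 0.11) and Ezr, a linker of membrane and actin in Schwann cell microvilli (0.55 ± 0.10), rose. Of 4 further Drp2 probe sets 1 passed (-0.60) and 3 did not, and the further one of Cadm3 did not (-0.12). Pllp (old 2, 3, 6 and 8, adult 1, 2, 4, 5, 7 and 8, at -0.24 to -0.19) did not pass when any 1 of the replicates given was left out.

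Ion channel and neurofilament genes split. The sodium channel subunit Scn3b rose from 7.31 to 8.05 (median 7.73) log2 to 8.44 to 10.77 (median 9.00) log2 (1.58 ± 0.24, adjusted p = 2.92e-05). It was the only one of 20 channel genes in the group past 2-fold. Kcnab1, a potassium channel accessory subunit, rose by 0.48 ± 0.11 and the leak channel Kcnk2 by 0.48 ± 0.15, whereas Kcnk1 (-0.50 ± 0.11) and Kcnj3 (-0.46 ± 0.11) fell. Nefl, the light neurofilament, read 8.61 to 10.70 (median 9.81) log2 in adult and 10.25 to 12.51 (median 11.77) log2 in old rats (1.86 ± 0.29), Nefm 8.72 to 9.82 (median 9.18) log2 and 8.56 to 11.88 (median 10.51) log2 (1.31 ± 0.30), and the heavy subunit Nefh 7.21 to 8.59 (median 7.82) log2 and 6.29 to 7.97 (median 6.87) log2 (-1.01 ± 0.19). Light and medium subunits thus rose and the heavy one fell, each with some overlap. Prph, another filament of axons, fell (-0.52 ± 0.14), as did the neuronal tubulin Tubb3 (-0.46 ± 0.14). Dimmer probe sets of Kcnab1 (0.04), Kcnk2 (0.08), Kcnj3 (-0.07) and Tubb3 (-0.16) did not pass. Those of Scn3b (1.77) and Nefl (2.57) and another of Kcnj3 (-0.66) did. With the nerve from the source names Nefh did not pass (-0.60, adjusted p = 0.142). Kcnk2 (old 7, adult 3, at 0.43) and Tubb3 (old 2 and 6, adult 2 and 3, at -0.45 to -0.39) did not pass when any 1 of the replicates given was left out.

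Of 20 further Schwann cell transcription factors 17 did not pass, Egr2 (0.24 ± 0.11) and Sox10 (0.11 ± 0.11) among them. The Egr corepressor Nab1 fell (-0.32 ± 0.06) and its relative Nab2 rose (0.31 ± 0.08), as did Etv1 (0.36 ± 0.09). Among 22 trophic factors 4 rose and 3 fell: the heparin-binding growth factors Mdk (0.80 ± 0.15) and Ptn (0.28 ± 0.06), Gdf15 (0.50 ± 0.13) and Tgfb1 (0.48 ± 0.13) were higher, and Nrtn (-0.36 ± 0.09), Vegfb (-0.47 ± 0.13) and Fgf7 (-0.28 ± 0.09) lower. Only Mdk of these separated the ages fully, at 9.10 to 9.66 (median 9.46) log2 in adults and 9.81 to 10.84 (median 10.10) log2 in old rats. Of 23 receptor genes the glial-factor receptor Gfra1 (0.46 ± 0.13) and the neuregulin co-receptor Erbb2 (0.35 ± 0.10) rose and the myelin-inhibitor receptor Rtn4r fell (-0.43 ± 0.09). In the hedgehog pathway, 1 of 11 genes fell, the ligand exporter Disp1 (-0.45 ± 0.09). The receptor and hedgehog counts, and the rises in insulin signalling given next, lie near the shares of all genes, 9.57% higher and 7.83% lower. In insulin signalling Grb14, an adaptor that inhibits the insulin receptor, fell (-0.51 ± 0.07), as did Pik3r1, described above, and the catalytic subunit Pik3ca (-0.14 ± 0.04), while Igfbp3 (0.81 ± 0.18) and the insulin receptor Insr (0.30 ± 0.10) rose, and 16 of 21 did not pass. The receptor Tgfbr1 (0.56 ± 0.10), the ligand Bmp2 (0.52 ± 0.13) and the activin inhibitor Fstl3 (0.47 ± 0.13) rose and the BMP inhibitor Grem1 (-0.34 ± 0.11) fell within a TGF-beta and BMP group in which 18 of 22 did not pass. Dimmer probe sets of Tgfbr1 (0.10), Gfra1 (0.30) and Insr (0.05) and some of Etv1 (0.33 and 0.34) did not pass. Those of Nab1, Rtn4r, Igfbp3, Bmp2 and Fstl3 and the others of Etv1 did. None of 5 further Pik3ca probe sets passed, and 2 of them read above 0. Fgf7 (old 2 and 7, adult 1, 4, 5 and 8, at -0.28 to -0.24), Erbb2 (old 6, at 0.31) and Insr (old 2, 3, 6 and 8, adult 1, 3 and 4, at 0.24 to 0.29) did not pass when any 1 of the replicates given was left out. Grem1 (old 2, 3, 4 and 6, adult 2, 4 and 8, at -0.34 to -0.25) did not pass likewise.

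Sterol synthesis was lower and sterol export higher. Of 17 enzymes of cholesterol synthesis 16 fell and 0 rose by limma (at an unadjusted p under 0.05, 17 and 0), with a median of -0.48 log2, and none passed 2-fold. On the arrays poor in muscle transcripts 8 fell by limma (14 at an unadjusted p under 0.05). This pathway was singled out by the study on the same samples, so its direction is not independent evidence. The mean of the group was 10.29 to 10.51 (median 10.38) log2 in adult and 9.48 to 10.21 (median 9.86) log2 in old arrays, without overlap. Idi1, which isomerises the isoprenoid building block, read 11.34 to 11.72 (median 11.58) log2 and 10.28 to 11.29 (median 10.61) log2 (-0.85 ± 0.11, adjusted p = 3.97e-06), Fdft1, the enzyme that makes squalene, 10.98 to 11.33 (median 11.09) log2 and 9.79 to 10.76 (median 10.38) log2 (-0.77 ± 0.11), and Sqle, which oxidises it, 10.71 to 10.93 (median 10.75) log2 and 9.40 to 10.56 (median 10.10) log2 (-0.72 ± 0.12). Each old rat lay below each adult rat in all 3. The sterol reductase Tm7sf2 (-0.79 ± 0.13), Cyp51 (-0.66 ± 0.11), Fdps (-0.48 ± 0.08), Nsdhl (-0.43 ± 0.07) and Msmo1 (-0.43 ± 0.09) followed.

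The SREBP-related genes of fatty acids and sterol control fell in 11 of 18 (median -0.24 log2). The 4 with the smallest adjusted p were the elongase Elovl6 (-0.96 ± 0.13), the sterol-sensing retention protein Insig1 (-0.55 ± 0.12), the sterol carrier Stard4 (-0.36 ± 0.08) and the desaturase Fads1 (-0.22 ± 0.05). The largest fall in the group was that of the desaturase Scd (-1.94 ± 0.58), which is named after its values were seen. Genes of efflux and storage rose in 6 of 15. The exporter Abca1 read 10.38 to 10.77 (median 10.71) log2 and 11.84 to 12.64 (median 12.04) log2 (1.54 ± 0.10, adjusted p = 2.51e-12), the carrier Apod 12.25 to 13.58 (median 13.26) log2 and 13.91 to 14.33 (median 14.10) log2 (0.97 ± 0.14), and Apoe 13.40 to 13.54 (median 13.46) log2 and 13.65 to 13.95 (median 13.76) log2 (0.32 ± 0.04). No old array reached down to the adult range in these 3. Apoc1 rose by 2.04 ± 0.30. Of 16 sphingolipid enzymes 3 fell, the myelin galactolipid hydroxylase Fa2h (-0.50 ± 0.11), the desaturase Degs1 (-0.20 ± 0.03) and the ceramide synthase Cers2 (-0.17 ± 0.06). In mitochondrial fat oxidation 4 of 18 genes fell, the dehydrogenases Acadvl (-0.16 ± 0.04) and Acadm (-0.18 ± 0.06) and the electron carriers Etfb (-0.28 ± 0.09) and Etfdh (-0.18 ± 0.06). In oxidative phosphorylation 2 of 19 fell, the complex I subunits Ndufb8 (-0.14 ± 0.04) and Ndufa5 (-0.14 ± 0.04), beside the 7.83% of all genes that were lower. Scd (adult 1, at -1.63), Cers2 (old 2, 6 and 8, adult 1, 2, 3, 4, 5, 7 and 8, at -0.18 to -0.13) and Acadm (old 4, 6, 7 and 8, adult 2, 3 and 5, at -0.18 to -0.13) did not pass when any 1 of the replicates given was left out. Etfb (old 2, 6 and 8, adult 1, 2, 3, 5 and 7, at -0.28 to -0.23), Etfdh (old 1, 2, 4, 6 and 8, adult 1, 2, 3, 5 and 7, at -0.18 to -0.14) and Ndufb8 (old 8, at -0.11) did not pass likewise. Ndufa5 (old 2, 3, 6, 7 and 8, adult 1, 2, 5 and 8, at -0.14 to -0.12) did not pass likewise. Sterol and fatty acid regulator genes that fell numbered 7 instead of 11 without adult replicate 1. Sphingolipid enzyme genes that fell numbered 5 to 6 instead of 3 without old replicate 4 or 5. Mitochondrial fatty acid oxidation genes that fell numbered 1 to 2 instead of 4 without old replicate 2, 4, 6 or 8 or adult replicate 2, 3, 5 or 7.

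Interferon-induced genes rose together. Of 30 effectors 22 rose and 2 fell, with a median of 0.65 log2, against the 9.57% of all genes that were higher. This group was chosen with earlier results of these data known, so its count is not independent evidence. Lgals3bp, whose promoter is printed above, read 10.05 to 10.33 (median 10.18) log2 in adult and 11.05 to 11.59 (median 11.46) log2 in old rats (1.16 ± 0.10, adjusted p = 7.17e-10), Oas1a 7.42 to 8.58 (median 8.23) log2 and 9.22 to 9.94 (median 9.57) log2 (1.41 ± 0.20), and Ifi44l 8.71 to 9.50 (median 9.05) log2 and 9.97 to 10.62 (median 10.17) log2 (1.14 ± 0.13). The ages were apart in each of the 3, which are among the members picked by small adjusted p. Further rises were those of the receptor chaperone Rtp4 (1.52 ± 0.17), Usp18, a protease that removes ISG15 from proteins and dampens the receptor (1.52 ± 0.20), Ifit3 (1.61 ± 0.26), Ifit2 (0.83 ± 0.10), the ubiquitin ligase Trim25 (0.82 ± 0.10) and Parp9 (0.68 ± 0.08). The antiviral GTPase Mx1 was the largest of the group (1.95 ± 0.32) and is named after its values were seen. Ifit1, in contrast, read 6.11 to 8.00 (median 7.69) log2 in adults and 5.39 to 6.23 (median 5.87) log2 in old rats (-1.52 ± 0.22, adjusted p = 1.4e-05), and Oas1b read -0.60 ± 0.18. Ifit and Oas genes are families of close copies, whose probes may read more than 1 member. Oas1b (adult 5 and 6, at -0.50 to -0.46) did not pass when any 1 of the replicates given was left out.

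Genes that induce or relay interferon rose in 6 of 18 (median 0.35 log2), and by limma 0 fell (at an unadjusted p under 0.05, 10 rose and 0 fell). The RNA sensor relative Dhx58 read 5.71 to 6.52 (median 6.17) log2 and 7.19 to 8.03 (median 7.31) log2 (1.31 ± 0.18, adjusted p = 3.74e-06), and the factor Irf7, which drives interferon genes, 9.39 to 10.42 (median 10.02) log2 and 10.49 to 11.62 (median 11.20) log2 (1.15 ± 0.20). Neither overlapped. Irf9 (0.53 ± 0.07) and Stat2 (0.45 ± 0.07), which form the complex on the response element, rose less, as did the RNA sensor Ifih1 (0.39 ± 0.07), while the nucleic acid sensor Zbp1 rose by 1.25 ± 0.28. Of 13 genes tied to interferon-gamma 6 rose, among them Ubd (2.17 ± 0.34), the guanylate-binding proteins Gbp2 (0.77 ± 0.09), Gbp4 (0.78 ± 0.21) and Gbp7 (0.63 ± 0.17) and the GTPases Irgm (0.57 ± 0.13) and Igtp (0.50 ± 0.12). Of 16 genes of antigen presentation 6 rose by small amounts, such as the peptide transporter Tap2 (0.59 ± 0.12), the peptide trimmer Erap1 (0.19 ± 0.05), the chaperone Calr (0.23 ± 0.06) and B2m (0.13 ± 0.03), and the class II genes Cd74 (-0.07 ± 0.16) and RT1-Da (0.01 ± 0.20) did not pass. With the arrays above 9 in muscle transcripts left out, 14 of the 30 effectors rose and 2 fell, and 0 of the 16 presentation genes passed (limma; at an unadjusted p under 0.05, 3 rose and 0 fell).

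Genes of dividing cells were higher in old nerves. Of 25 mitosis genes 24 rose, with a median of 0.81 log2, and only Ccne2 did not pass (-0.13 ± 0.06, a second probe set 0.31, adjusted p = 0.0227). The mean of the mitosis genes was 6.41 to 6.67 (median 6.53) log2 in adult and 6.89 to 7.94 (median 7.28) log2 in old arrays. Cdk1 read 5.79 to 6.402 (median 6.18) log2 and 6.88 to 8.66 (median 7.56) log2 (1.61 ± 0.21, adjusted p = 1.95e-06), Top2a 5.87 to 6.39 (median 6.09) log2 and 6.88 to 8.26 (median 7.54) log2 (1.45 ± 0.18), and the proliferation marker Mki67 6.61 to 7.13 (median 6.83) log2 and 7.72 to 9.35 (median 8.14) log2 (1.496 ± 0.24). The ages were apart in all 3, and most levels lay in the lower part of the scale. Ccnb2 (1.55 ± 0.19) and Ect2 (1.25 ± 0.16) rose alike. Of 23 genes of DNA replication 15 rose and 0 fell by limma (at an unadjusted p under 0.05, 17 and 0; median 0.40 log2): beside Fam111a and Rrm2 were the helicase subunit Mcm7 (0.48 ± 0.07), the primase Prim1 (0.60 ± 0.09) and Uhrf1, which maintains DNA methylation (0.88 ± 0.15). Rrm2 read 6.39 to 7.15 (median 6.81) log2 in adults and 8.27 to 9.83 (median 8.73) log2 in old rats. Inhibitors of the cycle and p53 targets were mixed, with Gadd45a (0.58 ± 0.11), the kinase inhibitor Cdkn2b (0.63 ± 0.19) and the death receptor Fas (0.34 ± 0.10) higher, Cdkn1c (-0.38 ± 0.09) and Perp (-0.65 ± 0.18) lower, Cdkn1a at 0.58 ± 0.20 and Cdkn2a at 0.26 ± 0.11. The last 2 did not pass. Dimmer probe sets of Perp (-0.35) and Fas (0.05) did not pass either, while another of Fas (0.53) and those of Top2a and Rrm2 did. Cdkn2b (old 6 and 7, adult 1, at 0.52 to 0.58) did not pass when any 1 of the replicates given was left out.

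Macrophage genes were measured as 3 groups. Of 17 shared genes 10 rose (median 0.63 log2), of 20 lipid-handling genes 10 rose and 1 fell, and of 10 resident genes 1 rose. The lysosomal glycoprotein Cd68 read 9.52 to 10.07 (median 9.73) log2 in adult and 10.53 to 11.73 (median 11.16) log2 in old rats (1.40 ± 0.21, adjusted p = 2.06e-05), the lysozyme Lyz2 12.76 to 13.32 (median 13.18) log2 and 13.64 to 13.95 (median 13.75) log2 (0.63 ± 0.09), and the calcium-binding gene Aif1 9.48 to 10.00 (median 9.83) log2 and 10.39 to 10.90 (median 10.67) log2 (0.85 ± 0.19). All 3 were apart. A dimmer Aif1 probe set read 0.09 and did not pass. The protease Ctss (0.76 ± 0.12), the oxidase subunit Cybb (0.83 ± 0.20), the pore protein Mpeg1 (0.80 ± 0.16) and the signalling adaptors Tyrobp (0.71 ± 0.18) and Fcer1g (0.63 ± 0.13) also rose, and Csf1r (0.42 ± 0.18, adjusted p = 0.131) did not pass.

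Trem2 read 5.93 to 6.72 (median 6.47) log2 in adults and 7.64 to 9.57 (median 8.54) log2 in old rats (adjusted p = 4.99e-09), the melanosomal glycoprotein Gpnmb 11.07 to 11.50 (median 11.37) log2 and 11.87 to 13.30 (median 12.78) log2 (1.47 ± 0.16), and the glucan receptor Clec7a 7.50 to 8.26 (median 8.00) log2 and 8.62 to 10.59 (median 9.28) log2 (1.62 ± 0.26). Old and adult rats were apart in each. The fatty acid carrier Fabp5 (0.67 ± 0.09), the elastase Mmp12 (0.95 ± 0.16), Ctsd (0.40 ± 0.07), Lgals3 (0.28 ± 0.04) and Ctsb (0.22 ± 0.04) rose, and the tetraspanin Cd9 fell (-0.14 ± 0.04). Which cells of the nerve made these transcripts was not tested. Among resident genes only Cd209f passed (1.47 ± 0.46). Of 11 sialic acid, Fc and related receptors 4 rose, which were Siglec5, Cd33 (1.14 ± 0.20), Fcgr3a (1.43 ± 0.35) and Clec12a (0.71 ± 0.18). On the arrays poor in muscle transcripts 3 of the 17 shared genes and 8 of the 20 lipid-handling genes rose, with medians of 0.54 and 0.31 log2 against 0.63 and 0.25 log2 over all arrays. These fits had 4 old and 3 adult radial arrays. Cd9 (old 2, at -0.12) and Cd209f (old 3, 5 and 8, adult 6, at 1.28 to 1.37) did not pass when any 1 of the replicates given was left out.

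Of 24 chemokines 8 rose and Ccl19, which guides lymphocytes and dendritic cells, fell (-0.74 ± 0.18). The interferon-induced Cxcl10 read 6.29 to 8.13 (median 7.20) log2 and 7.99 to 10.43 (median 8.86) log2 (1.75 ± 0.34), Cxcl14 9.60 to 10.35 (median 10.02) log2 and 10.31 to 12.32 (median 11.11) log2 (1.198 ± 0.21), and Cxcl16 9.28 to 10.15 (median 9.78) log2 and 10.18 to 10.76 (median 10.41) log2 (0.69 ± 0.12). Only Cxcl16 of these was free of overlap. Ccl3 rose by 0.65 ± 0.14. With the nerve from the source names Cxcl14 did not pass (0.68, adjusted p = 0.157). Of 26 receptors 6 rose, led by Ccr6 (1.23 ± 0.21), Cxcr4 (0.53 ± 0.10) and the interferon-gamma receptor chains Ifngr2 (0.26 ± 0.05) and Ifngr1 (0.15 ± 0.05). Ifngr1 (old 1, 3, 6 and 8, adult 2, 3, 4 and 5, at 0.13 to 0.15) did not pass when any 1 of the replicates given was left out. Chemokine genes that rose numbered 5 instead of 8 without old replicate 6 or adult replicate 1 or 7. Chemokine and cytokine receptor genes that rose numbered 3 instead of 6 without old replicate 3 or 6 or adult replicate 3 or 5.

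Few genes of lymphocytes and mast cells passed, in shares near the 9.57% higher and 7.83% lower among all genes. Of 17 T and NK cell genes 2 rose, of which the T cell receptor chain Cd3g was higher by 0.99 ± 0.17 and the granzyme Gzmb by 0.55 ± 0.16 while Cd3e (0.54 ± 0.20) did not pass. Of 8 B cell genes only the adaptor Blnk rose (1.31 ± 0.15), which macrophages also express, and Ms4a1 (-0.20 ± 0.15) and Jchain (-0.17 ± 0.19) did not pass. The mast cell protease Cma1 fell (-0.60 ± 0.16), whereas Cpa3 (0.10 ± 0.18) and Tpsab1 (0.04 ± 0.22) did not pass. By limma 0 of 6 neutrophil genes passed at adjusted p under 0.05, and 1 did at an unadjusted p under 0.05. Of 16 complement genes 3 rose and 2 fell. Complement C6 fell (-1.11 ± 0.31), as did Masp1 (-0.63 ± 0.15), and Clu (0.17 ± 0.04), the protease Cfi (0.58 ± 0.18) and the C3a receptor C3ar1 (0.62 ± 0.17) rose. Of 18 acute phase genes 2 rose and 3 fell, 3 of these past 2-fold. A2m read 5.76 to 8.48 (median 7.73) log2 in adults and 8.51 to 11.50 (median 9.38) log2 in old rats, the plasma protein Alb 7.14 to 11.34 (median 8.80) log2 and 4.85 to 7.46 (median 5.94) log2 (-3.15 ± 0.60, adjusted p = 0.00039), and the iron-binding lipocalin Lcn2 9.47 to 10.29 (median 9.87) log2 and 6.55 to 9.76 (median 7.48) log2 (-1.81 ± 0.45). A2m was apart, whereas 1 or more old arrays reached into the adult range for Alb and Lcn2. Ceruloplasmin Cp rose (0.32 ± 0.06) and Serpinf1 fell (-0.28 ± 0.09), and among iron genes the reductase Steap4 rose (0.36 ± 0.09). The dimmer probe sets of Clu and Masp1 did not pass, and Clu's read -0.17. Cfi (old 1, 6 and 7, adult 2, 3 and 4, at 0.46 to 0.57) and Serpinf1 (old 7, adult 3, 4 and 6, at -0.27 to -0.23) did not pass when any 1 of the replicates given was left out.

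Of 18 collagens 6 rose and 1 fell. The basement membrane collagen Col18a1 read 10.60 to 11.02 (median 10.90) log2 and 11.25 to 11.92 (median 11.43) log2 (0.62 ± 0.08, adjusted p = 9.97e-07), and was the clearest of them. The collagen VI chains Col6a1 (0.23 ± 0.07), Col6a2 (0.27 ± 0.08) and Col6a3 (0.23 ± 0.07) rose and Col14a1 fell (-0.28 ± 0.09). The main fibrillar genes Col1a1 (-0.10 ± 0.08) and Col3a1 (-0.01 ± 0.05) did not pass in their brightest probe sets, and a second one of Col1a1 fell (-0.34, adjusted p = 0.00287). Thbs2, a matricellular gene, read 9.40 to 9.86 (median 9.67) log2 in adults and 9.86 to 12.00 (median 10.87) log2 in old rats. It (1.34 ± 0.22) and Tnc (0.75 ± 0.17) rose without overlap, as the protease inhibitor Timp1 (0.58 ± 0.12) and the protease Mmp19 (0.77 ± 0.16) did with overlap. Adamts9 (0.39 ± 0.11) and Timp3 (0.13 ± 0.04) rose, while Mmp3 (-1.80 ± 0.51), the aggrecan-cleaving Adamts4 (-0.46 ± 0.16) and Adamts5 (-0.37 ± 0.12) and the procollagen protease enhancer Pcolce (-0.24 ± 0.07) fell. Of 14 tendon and cartilage genes only Cnmd passed, at 11.48 to 11.85 (median 11.68) log2 in adults and 9.77 to 10.67 (median 10.19) log2 in old rats. By limma 0 of 16 markers of perineurium, 0 of 14 of pericytes and smooth muscle and 0 of 13 of adipocytes passed, with 4, 2 and 0 at an unadjusted p under 0.05. Of 15 endothelial genes the VEGF receptor Kdr fell (-0.37 ± 0.08), though not in its dimmer probe set (0.02). Of 16 fibroblast genes Apod and Etv1 rose and Dpep1 fell, from 7.69 to 9.95 (median 8.13) log2 to 6.28 to 7.38 (median 6.97) log2. Col6a1 (old 8, adult 1 and 5, at 0.20 to 0.21), Col6a3 (old 6 and 8, adult 5, at 0.21 to 0.22) and Col14a1 (old 7, adult 4, at -0.27 to -0.24) did not pass when any 1 of the replicates given was left out. Timp3 (old 2, 6, 7 and 8, adult 1, 2, 3, 4, 5, 6 and 8, at 0.11 to 0.13), Adamts4 (old 1, 2, 5, 6, 7 and 8, adult 1, 2, 3, 4, 5 and 6, at -0.50 to -0.30) and Adamts5 (old 6 and 7, adult 3, 4, 5 and 8, at -0.36 to -0.30) did not pass likewise. Pcolce (old 5 and 6, adult 4, 6 and 7, at -0.22 to -0.21) did not pass likewise. Over all animals, dimmer probe sets of Adamts5 (-0.71, adjusted p = 2.14e-05 by limma), Col6a3 (0.51), Col14a1 (-0.33) and Timp3 (0.16) passed. That of Adamts9 (0.13) and another of Timp3 (0.14) did not. Collagen genes that rose numbered 2 to 3 instead of 6 without adult replicate 1 or 5.

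Among the remaining groups, 7 of 25 clock and glucocorticoid genes rose and 2 fell. The clock repressors Per2 (1.05 ± 0.25), Bhlhe40 (0.82 ± 0.19) and Bhlhe41 (0.77 ± 0.16) were higher, as was Nr1d2 (0.50 ± 0.14), and the activator Npas2 (-0.98 ± 0.26) and the repressor Nfil3 (-0.47 ± 0.15) lower, all with overlap, and the hour of tissue collection is not given in the sources used here. Immediate early genes rose in 8 of 17, with Jund at 0.31 ± 0.06, Fosl1 at 0.84 ± 0.18, Nr4a3 at 1.32 ± 0.32 and the matricellular gene Ccn2 at 0.35 ± 0.10. The further probe set of Per2 did not pass, and of those of Jund and Nr4a3 1 each passed and 1 each did not. In the neuropeptide group Ramp3, which modifies the calcitonin-family receptors, rose from 6.97 to 7.61 (median 7.31) log2 to 7.93 to 8.97 (median 8.23) log2 (1.02 ± 0.13), the sensory peptide Calcb by 0.41 ± 0.11 and endothelin Edn1 by 0.66 ± 0.17. Tacr3 fell from 6.17 to 8.20 (median 6.76) log2 to 5.27 to 5.78 (median 5.49) log2. Of 23 antioxidant genes the haem oxygenase Hmox1 alone passed (0.46 ± 0.11). The chaperone genes Chordc1 (0.33 ± 0.07) and Dnajb1 (0.15 ± 0.05) rose among 16, and of 21 genes of stress in the endoplasmic reticulum Ddit3 rose (0.13 ± 0.04) and the sensors Atf6 (-0.27 ± 0.09) and Eif2ak3 (-0.13 ± 0.04) fell. Of 20 genes of prostanoids and leukotrienes Alox12 (0.42 ± 0.12) and the thromboxane synthase Tbxas1 (0.60 ± 0.19) rose. The counts of these chaperone, endoplasmic reticulum and prostanoid groups lie near the shares of all genes, 9.57% higher and 7.83% lower. Of 22 lysosomal genes 5 rose, such as the channel Mcoln1 (0.17 ± 0.04), the protease Ctsk (0.29 ± 0.08), Lamp2 (0.15 ± 0.04) and Scarb2 (0.38 ± 0.11), and Tpp1 fell (-0.14 ± 0.04). Of 13 position genes Hoxb5 (-0.33 ± 0.11) and Hoxa9 (-0.37 ± 0.13) fell. Nfil3 (old 6, 7 and 8, adult 1, 2, 3, 4 and 5, at -0.46 to -0.34), Ccn2 (old 6, at 0.30) and Dnajb1 (adult 2, 3 and 5, at 0.14) did not pass when any 1 of the replicates given was left out. Ddit3 (old 2, 3, 5, 7 and 8, adult 1, 2, 4, 5, 6, 7 and 8, at 0.10 to 0.13), Atf6 (old 2 and 6, adult 1, 3, 5, 6, 7 and 8, at -0.27 to -0.23) and Eif2ak3 (old 1, 2, 4, 5, 7 and 8, adult 1, 2, 4, 6, 7 and 8, at -0.13 to -0.11) did not pass likewise. Tbxas1 (old 3, 6 and 7, adult 2, 5 and 7, at 0.56 to 0.60), Lamp2 (adult 2, at 0.12) and Scarb2 (old 3 and 7, at 0.34) did not pass likewise. Hoxb5 (old 3, 4, 6 and 7, adult 1, 4 and 6, at -0.32 to -0.27) and Hoxa9 (old 1, 3, 5, 6, 7 and 8, adult 1, 2, 4, 5, 6 and 8, at -0.38 to -0.29) did not pass likewise. Immediate early genes that rose numbered 3 to 5 instead of 8 without old replicate 2, 4, 6 or 8 or adult replicate 1, 3, 5 or 8. Lysosomal genes that rose numbered 3 instead of 5 without old replicate 3 or 7 or adult replicate 2.

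The old rats differed among themselves. In 8 of the 15 genes described first, the largest increases among genes without overlap and with an established symbol, the 3 highest old arrays were replicates 1, 6 and 7: Epcam, Trem2, Ucn2, A2m, Rrm2, Apoc1, Ngfr and Tmem196. In Ngfr these were 10.95, 11.38 and 11.61 log2, and the lowest old array was replicate 2 at 9.23 log2. These 3 rats were singled out after the values were seen. They also had the highest means of the repair Schwann cell genes, Ngfr among them (8.56, 8.88 and 8.77 log2), and of the mitosis genes (7.64, 7.68 and 7.94 log2). Interferon effectors ranked otherwise, with replicate 2 highest at 10.39 log2 and the other old rats between 9.79 and 10.01 log2.

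Muscle transcripts varied beside this. Their mean was 8.36, 6.48 and 6.72 log2 in old replicates 1, 6 and 7 and 6.86 log2 in replicate 4, all at or below 9, against 10.85 to 12.96 log2 in the other 4. Of the adult rats 3 also lay at or below 9. Within the arrays at or below 9 the age change of Ngfr was 2.60 log2 and within those above 9 it was 1.42 log2. For Cdk1 these were 2.21 and 1.05 log2, for Fam111a 5.64 and 5.38 log2, for Ifit3 1.14 and 1.99 log2, and for Idi1 -0.99 and -0.74 log2. Old and adult arrays were apart for all 5 genes over all radial arrays, so they had to be apart within both sets. In the adult rats Ngfr lay between 8.37 and 8.63 log2 where muscle transcripts were few and between 8.02 and 8.59 log2 where they were many. With the muscle mean as a covariate 23 of 25 mitosis genes rose, 22 of 30 interferon effectors, 9 of 17 macrophage genes and 10 of 18 repair genes, and 16 of 17 sterol enzymes fell. On the arrays at or below 9 these counts were 17, 14, 3, 8 and 8, and at an unadjusted p under 0.05 they were 24, 19, 7, 10 and 14. The group medians there were 1.10 log2 for mitosis, 0.50 for interferon effectors, 0.54 for pan-macrophage genes, 0.73 for denervated and repair Schwann cells and -0.44 for cholesterol synthesis. By limma 0 of 13 muscle genes passed between the ages, 0 at an unadjusted p under 0.05 (median -0.98 log2). The part of muscle in these results was not tested.

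**Figure D3:**
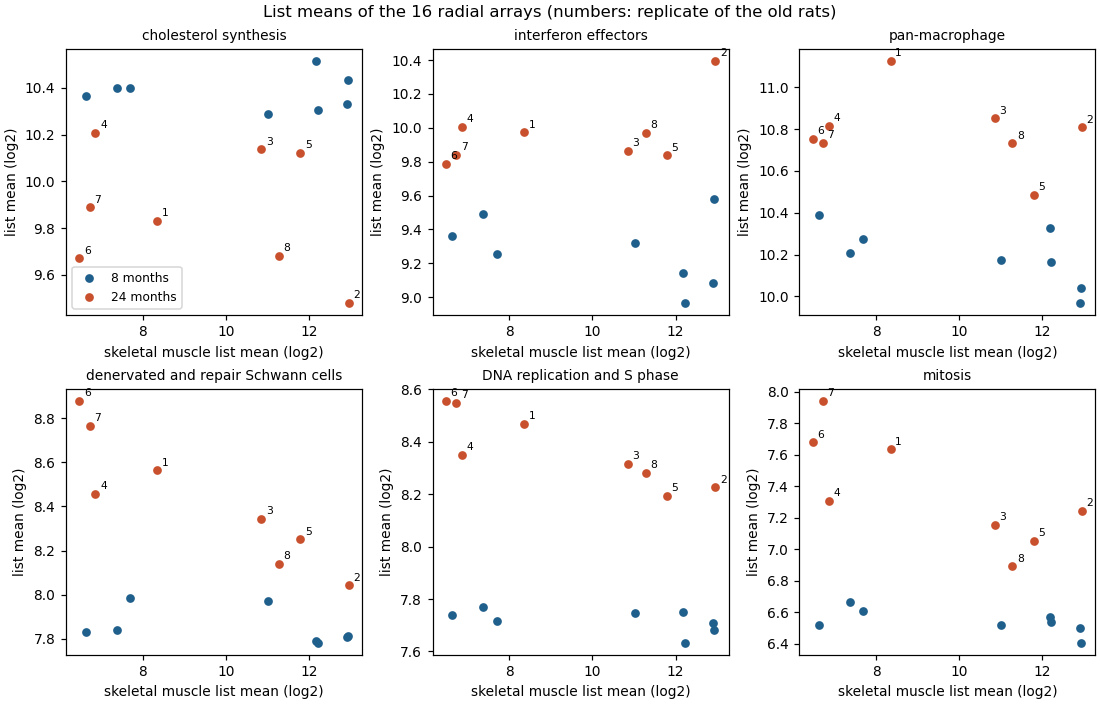
Mean of 6 gene groups (y axes, log2, not starting at 0) against the mean of the 13 skeletal muscle genes (x axis, log2) in the 16 radial arrays, blue for 8 months and red for 24 months, with the replicate number of each old rat. The ages do not overlap in these 6 groups, which were picked from those without overlap, while the means of most gene groups overlapped. Old replicates 1, 6 and 7 lie highest for the repair, replication and mitosis genes.

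Few genes changed differently with age in the 2 nerves, which came from the same rats. The difference between the radial and the sciatic age change passed for 49 of 13437 genes (0.365%), 28 in the positive direction, which means higher or less low in the radial nerve, and 21 in the negative. Without the animal term 2 genes passed, Rc3h2 and Ap4b1, and on the arrays poor in muscle transcripts 0 did by limma. There 2048 of 31042 probe sets had an unadjusted p under 0.05, where chance alone gives about 1 in 20. With the nerve from the source names H2bl1, Cma1, Tmx3, Cpa3, Ap4b1, Rfxank and Cyp51 did not pass, and the difference of Tacr3 turned to 0.10. Among the 8 positive genes with the smallest adjusted p were the lipid genes Idi1 and Elovl6. Idi1 changed by -0.85 ± 0.11 in the radial and -1.66 ± 0.11 in the sciatic nerve (difference 0.81 ± 0.15, adjusted p = 0.0188), and Elovl6 by -0.96 ± 0.13 and -1.80 ± 0.13 (difference 0.84 ± 0.17, adjusted p = 0.0278). Both fell in both nerves, and by less in the radial nerve. The sterol genes Fdft1 (0.67 ± 0.14) and Cyp51 (0.63 ± 0.14) differed in the same sense. The mast cell proteases were the others with large differences: Cma1 changed by -0.60 ± 0.16 and -1.68 ± 0.16 (difference 1.09 ± 0.20, adjusted p = 0.0196), and Cpa3 read 0.10 ± 0.18 in the radial nerve, which did not pass, and -1.07 ± 0.18 in the sciatic nerve (difference 1.17 ± 0.23, adjusted p = 0.0236). Idi1 (adult 8, at 0.81), Elovl6 (old 3, 4 and 7, adult 1, 2, 3, 7 and 8, at 0.77 to 0.86) and Fdft1 (old 3, 4, 7 and 8, adult 1, 2, 3, 4, 6, 7 and 8, at 0.63 to 0.70) lost the difference between the nerves when any 1 of the replicates given was left out. Cyp51 (old 3, 4, 5, 6, 7 and 8, adult 1, 2, 3, 4, 6, 7 and 8, at 0.57 to 0.66), Cma1 (adult 8, at 1.02) and Cpa3 (old 4, adult 1, 2, 3, 7 and 8, at 1.01 to 1.18) lost the difference between the nerves likewise.

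The other 4 positive genes had smaller differences. They were H2bl1 (0.17 ± 0.05 in the radial and -0.17 ± 0.05 in the sciatic nerve), Washc4 (0.18 ± 0.04 and -0.08 ± 0.04), Tmx3 (0.17 ± 0.04 and -0.08 ± 0.04) and Fndc3a (0.45 ± 0.07 and 0.01 ± 0.07). H2bl1 lay near the lowest values of the array, and the further probe sets of Washc4 and Fndc3a did not pass for age, that of Fndc3a at -0.13 (nerve difference -0.10). In the negative direction Rc3h2, which controls mRNA decay, and the adaptor subunit Ap4b1 led. Rc3h2 read 9.27 to 9.65 (median 9.46) log2 in adult and 8.84 to 9.16 (median 8.96) log2 in old radial nerves (-0.51 ± 0.06) and stood at 0.07 ± 0.06 in the sciatic nerve (difference -0.57 ± 0.07, adjusted p = 0.000106), and Ap4b1 changed by -0.38 ± 0.05 and 0.16 ± 0.05 (difference -0.54 ± 0.07, adjusted p = 0.000106). The radial ages were apart for both. Cfap299 rose by 0.76 ± 0.15 in the radial and 1.82 ± 0.15 in the sciatic nerve. The rest were Myrf (-0.31 ± 0.09 and 0.28 ± 0.09), Anp32a (-0.27 ± 0.05 and 0.10 ± 0.05), Crisp3 (-0.16 ± 0.06 and 0.24 ± 0.06), Rfxank (-0.25 ± 0.04 and 0.03 ± 0.04) and Osbpl1a (-0.37 ± 0.05 and -0.02 ± 0.05). Tacr3 (-1.06 ± 0.22) and Ramp3 (-0.77 ± 0.17) also passed, and Ngfr, with 2.03 ± 0.23 in the radial and 3.04 ± 0.23 in the sciatic nerve, did not (difference -1.01 ± 0.31, adjusted p = 0.153). The count of probe sets that differed between the nerves was 108. It was 171 without old replicate 1 and 9, 11 and 18 without old replicate 4, adult replicate 8 and adult replicate 1. It lay between 26 and 70 without old replicate 3, 5, 7 or 8 or adult replicate 2, 3, 4, 6 or 7. Washc4 (old 4, adult 1, 2, 7 and 8, at 0.25 to 0.26), Tmx3 (old 4, adult 1, 2 and 8, at 0.24 to 0.25) and Fndc3a (old 3, 4 and 7, adult 1, 2, 7 and 8, at 0.38 to 0.44) lost the difference between the nerves when any 1 of the replicates given was left out. Cfap299 (old 4, at -1.002), Myrf (old 4, adult 3, 7 and 8, at -0.59 to -0.54) and Anp32a (old 4, adult 1, 2, 3, 7 and 8, at -0.36 to -0.34) lost the difference between the nerves likewise. Crisp3 (old 4 and 7, adult 1, 2, 3 and 8, at -0.40 to -0.36), Rfxank (old 4 and 8, adult 1, 2, 3, 7 and 8, at -0.28 to -0.26) and Osbpl1a (old 3 and 4, adult 1, 2, 3, 7 and 8, at -0.36 to -0.32) lost the difference between the nerves likewise. Tacr3 (old 3, 4, 5 and 7, adult 2 and 4, at -1.05 to -1.01) and Ramp3 (old 2, 3, 4, 5 and 8, adult 1, 2, 3, 4, 5, 6, 7 and 8, at -0.82 to -0.70) lost the difference between the nerves likewise.

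**Figure D4:**
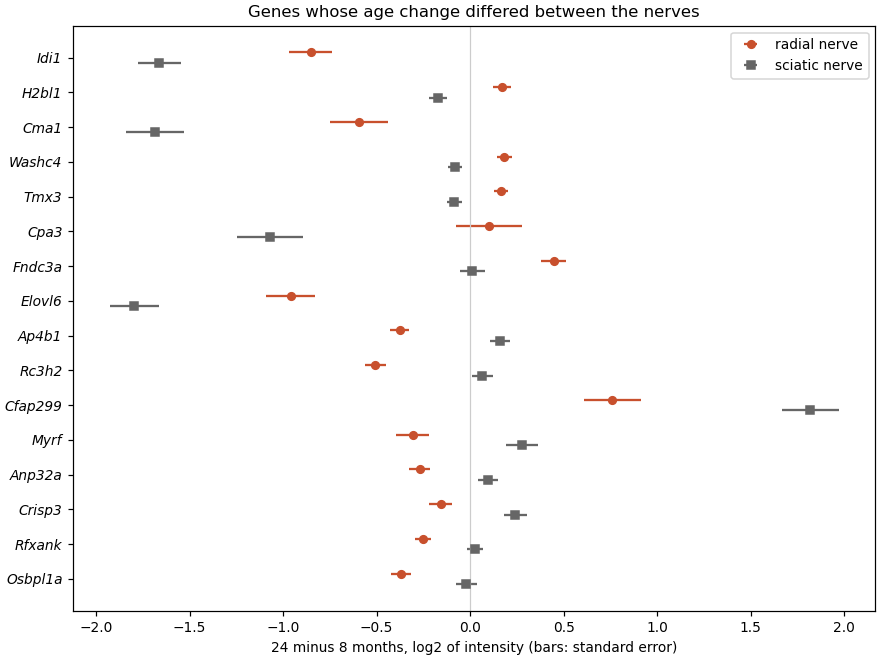
Age change (x axis: old minus adult, log2 of intensity, with the standard error of the fit) in the radial nerve (red circles) and the sciatic nerve (grey squares) of the 16 genes named for the difference between the nerves, 8 arrays per nerve and age. Idi1, Elovl6, Cma1 and Cpa3 lie further left in the sciatic nerve.

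The genes with values here had 116 further probe sets, which belong to 80 of the genes. Of these 67 shared direction and call with the brightest probe set, 37 shared direction but not the call, and 12 had the other sign, of which that of Ccne2 passed.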

How the data were processed

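Radial and sciatic nerves of 16 rats were measured on 32 Affymetrix rat PM arrays, 1 nerve piece an array. The deposited values are log2 intensities, which the authors made with RMA in Affymetrix Expression Console (version not given in the sources used here) from RNA extracted from the frozen nerve and amplified. The annotation named 1 gene for 19062 of 31042 probe sets other than controls, several for 573 and none for 11407, and a gene was read through its probe set with the highest mean over 32 arrays. A model of 4 groups (2 nerves, 2 ages) was fitted in R 4.3.3 with limma 3.58.1 and statmod 1.5.0, with the animal as a random block (correlation 0.148), and p was adjusted by Benjamini-Hochberg over all probe sets. The radial and sciatic arrays of 1 rat correlated above 0.1 in 13 of 16 rats after group means were removed. These correlations ran from -0.10 to 0.49. In 10 rats the radial array matched its own sciatic array best among those of its age. Radial arrays of different rats with the same replicate number at the 2 ages correlated from -0.08 to 0.60. The fits were tested on simulated data. Array number limits the precision.

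Genes were named by rule: the 15 highest and 15 lowest past both thresholds without overlap and with an established symbol, the 8 per direction with the smallest adjusted p for the nerve difference, up to 4 members per direction of each list with the smallest adjusted p (8 for cholesterol, interferon, macrophage and Schwann cell lists), and genes singled out by the study, some of which are not reported here. Members that did not pass were added where a list turns on them. Members, lists and rule were chosen with earlier results of these data known. Alternatives tried were other probe set filters, normalizations, array weights, covariates, block, sample labels and each animal left out. The choice to leave out the arrays above 9 in muscle transcripts was made after seeing the data. Promoters came from RefSeq build GRCr8.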

Additional observations from a re-analysis of the deposited data

Results flagged for a closer look

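In 33 of 544 sets of 8 radial arrays of 1 age (6.07%), 1 array stood apart from the other 7 by a gap above the 95% limit for 8 samples. Chance alone gives such a gap in about 1 in 20 sets. Adult replicate 2 lay above the other 7 in Ms4a1 (6.20 log2 against 4.96 to 5.32). Adult replicate 2 lay below the other 7 in Fndc3a (8.29 log2 against 8.58 to 8.81) and Atf6 (10.85 log2 against 10.99 to 11.12). Adult replicate 3 lay above the other 7 in Dpep1 (9.95 log2 against 7.69 to 8.42). Adult replicate 5 lay above the other 7 in Nfasc (11.38 log2 against 11.03 to 11.17) and Mx1 (9.68 log2 against 6.97 to 8.02). Adult replicate 5 lay below the other 7 in Pik3r1 (9.85 log2 against 10.55 to 10.85), Lyz2 (12.76 log2 against 13.13 to 13.32) and Col18a1 (10.60 log2 against 10.83 to 11.02). Adult replicate 6 lay above the other 7 in Col1a1 (14.03 log2 against 13.46 to 13.72) and Cp (12.29 log2 against 11.83 to 12.01). Adult replicate 6 lay below the other 7 in A2m (5.76 log2 against 7.39 to 8.48) and Apod (12.25 log2 against 12.99 to 13.58). Adult replicate 7 lay below the other 7 in Npas2 (9.54 log2 against 10.13 to 10.56). Adult replicate 8 lay above the other 7 in Jchain (7.29 log2 against 5.83 to 6.35). Adult replicate 8 lay below the other 7 in Scarb2 (8.92 log2 against 9.44 to 9.76). Old replicate 2 lay above the other 7 in Mmp3 (5.92 log2 against 4.94 to 5.39), Irgm (10.26 log2 against 9.23 to 9.64) and interferon effectors (10.39 log2 against 9.79 to 10.01). Old replicate 2 lay below the other 7 in Mal (12.79 log2 against 13.19 to 13.45), Pmp22 (14.32 log2 against 14.40 to 14.46), Prx (12.79 log2 against 13.14 to 13.33) and Lamp2 (13.07 log2 against 13.18 to 13.26). Old replicate 3 lay above the other 7 in Calr (12.31 log2 against 11.84 to 11.98). Old replicate 4 lay below the other 7 in Acadvl (10.37 log2 against 10.53 to 10.64). Old replicate 5 lay below the other 7 in Col6a3 (12.63 log2 against 12.86 to 13.01). Old replicate 6 lay above the other 7 in Uhrf1 (6.78 log2 against 5.74 to 6.12). Old replicate 6 lay below the other 7 in Anp32a (10.78 log2 against 11.02 to 11.18). Old replicate 7 lay above the other 7 in Cwc25 (7.49 log2 against 6.32 to 6.73) and Cdkn1a (10.52 log2 against 9.26 to 9.71). Old replicate 7 lay below the other 7 in Drg1 (9.66 log2 against 9.96 to 10.24) and Erap1 (11.83 log2 against 11.94 to 12.00). Old replicate 8 lay below the other 7 in Adamts4 (8.45 log2 against 9.40 to 10.09).

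The age change differed between the radial and the sciatic nerve by limma's test of the difference in 20 of the genes with values above. It was lower in the radial nerve, on the log2 scale, for Cfap299 (-1.06), Tacr3 (-1.06), Ramp3 (-0.77), Myrf (-0.58), Rc3h2 (-0.57), Ap4b1 (-0.54), Crisp3 (-0.40), Anp32a (-0.37), Osbpl1a (-0.35) and Rfxank (-0.28). It was higher in the radial nerve for Tmx3 (0.25), Washc4 (0.26), H2bl1 (0.35), Fndc3a (0.44), Cyp51 (0.63), Fdft1 (0.67), Idi1 (0.81), Elovl6 (0.84), Cma1 (1.09) and Cpa3 (1.17). The differences of Ap4b1 and Rc3h2 and that of H2bl1 passed with each animal left out in turn, and the others did not pass without at least 1 of the 16 animals.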

How the results depend on the processing

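The fit called 280 probe sets and 147 genes with age, and 252 to 299 probe sets (157 to 202 higher, 86 to 106 lower) and 129 to 162 genes with 1 animal left out in turn. At adjusted p alone those omissions gave 3913 to 5044 probe sets and 1901 to 2517 genes. Without the 2-fold limit 4778 probe sets (2440 higher, 2338 lower) and 2338 genes passed, and with a limit of 1.5-fold 872 (550 higher, 322 lower) and 428 genes. With the dimmer probe sets left out 125 were called (87 higher, 38 lower) in 82 genes, 120 of them among the 280, of 15521 tested. Radial arrays alone called 277 probe sets without and 279 with a replicate block on the number. At adjusted p alone these fits gave 4314 and 4348 probe sets, against 4778 with the sciatic arrays in the fit. Animals of 1 number differ between the ages, 4 of 8 such pairs correlated above 0.1, and the block is not a pairing.

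With the arrays above 9 in muscle transcripts left out, 3 adult and 4 old radial arrays remained. Then 333 probe sets were called, 203 of them among the 280, and 1725 probe sets and 828 genes passed at adjusted p alone. The nerve difference, 108 probe sets and 49 genes, was the least stable result. It gave 9 to 171 probe sets and 5 to 86 genes with 1 animal left out, 228 and 132 without dim probe sets, 57 and 22 with the variability filter, 78 genes with array weights, 2 and 2 with no replicate block (no animal term), and by limma 0 and 0 on arrays poor in muscle transcripts. On those arrays 2048 of 31042 probe sets had an unadjusted p under 0.05, where chance alone gives about 1 in 20. The cause was not tested.

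Of 246 genes with values above that passed for age, 114 passed in every alternative that tested them and 169 in all except the one without the muscle-rich arrays. Signs turned in 11 instances. The median of resident tissue macrophages was -0.12 without muscle-rich arrays and -0.00444 with the nerve from the source names, that of neutrophils -0.27 without dim probe sets, that of pericytes 0.0379 with the source names and that of muscle 0.0475 with muscle as a covariate. With the most variable probe set, Fndc3a read -0.13 (nerve difference -0.10), Clu -0.17, Ccne2 0.31 and Pik3ca 0.0798. The nerve difference of Tacr3 was 0.10 with the source names. Counts of 1 or 2 genes in a list often moved with 1 animal. Low signal and 8 rats per age limit what could be detected.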
